A study of Canis lupus familiaris with 60 samples.

Results

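Allergen patch sites of sensitized dogs were compared between 24 hr and 6 hr after the patch was applied. The members were chosen by their labels: 5 arrays of the 24 hr allergen sites and 6 arrays of the 6 hr allergen sites, together 11 of the 60 arrays of the series. The series holds skin biopsies of 12 Beagle dogs, 6 of them sensitized to house dust mite and 6 nonsensitized. Each dog gave untreated skin at 0 hr, and skin from an allergen site and a saline site at 6 hr and at 24 hr, which makes 10 groups. Every biopsy was hybridized to its own one-colour Agilent array of canine probes, so the precision is limited by the number of arrays.

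The allergen patch carried 75 mg of mite paste and the control patch 50 µl of saline, both on shaved skin of the chest. The dogs were 2 to 3 years old, of both sexes, and kept under the same conditions. Sensitization was documented by skin tests and by serum IgE against the mite. The patch was put back in place after the 6 hr biopsy, so the 24 hr skin had an earlier biopsy and local anaesthesia nearby, and their effect cannot be told apart from that of time. Dogs 2838, 2840, 2841, 2853 and 2855 had an array at both times and were compared with themselves. Dog 2839 had a 6 hr array in the comparison, and its 24 hr array (specimen 14) was left out. Side by side with these sites stand the saline sites of the same dogs (6 arrays per time) and the allergen sites of the nonsensitized dogs (6 arrays per time).

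In skin that meets an allergen to which the animal is sensitized, mast cells and resident cells act first, and leukocytes enter from the blood in the hours that follow. Chemokines direct this entry by binding receptors on the leukocytes, and antigen-presenting cells display allergen peptides to T cells on class II molecules. Keratinocytes meanwhile build the cornified layer, the outer barrier of the skin, from keratins, filaggrin-like proteins and lipids.

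No slide held arrays of both times. The 6 hr arrays lay on slides 5, 6 and 7 and the 24 hr arrays on slides 2, 3 and 8, so slide and time were linked only through other groups of the series. The second of 3 scan days held 5 of the 6 hr arrays and 3 of the 24 hr arrays, with complete pairs for dogs 2838, 2853 and 2855. Median processed signal ran from 83.59 to 127.71 at 6 hr, and from 104.27 to 142.93 at 24 hr. Between 69.26% and 80.03% of the spots were well above background at 6 hr, and between 73.95% and 76.25% at 24 hr.

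At 24 hr the allergen sites had higher mRNA levels than at 6 hr of most antigen presentation genes measured (16 of 21, counted by symbol). Higher as well were 6 of 9 macrophage markers (5 of them well above background on at least 5 arrays at each time) and 5 of 22 chemokines (3 of them so). Lower were 7 of 19 barrier genes and 3 of 16 oxidizing enzymes. Of 38237 array identifiers tested, 1328 were differentially expressed genes (DEG; limma adjusted p below 0.05 and at least 1.5-fold), which is 3.47%. Higher at 24 hr were 857 (2.24%) and lower were 471 (1.23%). Of the 857, 720 were higher in all 5 dogs with both arrays, and of the 471, 431 were lower in all 5. A gene symbol was known for 1250 genes, and 191 of these (15.3%) were DEG by their brightest probe, 138 higher (11.0%) and 53 lower (4.24%). Many symbols come from the study's own annotation of genes it selected on these arrays, so this share is not independent of the data. Among the 843 genes named through RefSeq, 47 were higher and 17 lower. Through RefSeq were named 1 of the 6 macrophage markers that rose and 0 of the 7 barrier genes that fell.

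The size of the change was modest for most DEG. The median difference of the 857 was 0.82 on the log2 scale, against 0.52 for the same identifiers at saline sites and 0.30 at allergen sites of nonsensitized dogs. For the 471 it was -0.71, against -0.56 and -0.03. Both sets were chosen for their change at allergen sites of sensitized dogs, so a larger median there is expected from the choice alone. Over all identifiers the median difference was -0.01. With scan day as a block 1363 identifiers were DEG, and within the second scan day 1512. A random block for slide gave 982. A fixed block for slide gave 2236, of which only 112 were among the 1328. Of the 24 genes with the largest changes named below 8 kept their call there, so slide and time can not be fully told apart here. These 24 include CXCL6, SLC26A4 and DNASE1, whose size of change is not read. With signal well above background required on all 11 arrays, 20 of the 24 remained to be tested, and all 20 were DEG. Values in the processed signals as deposited, without scaling between arrays, lie higher at 24 hr by a median of 0.28, and unscaled 4895 identifiers were higher and 176 lower; all differences here are relative to the scaled arrays.

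Chemokines, the secreted ligands that attract leukocytes, held the largest change. CCL17, which attracts T cells bearing CCR4, had log2 signals of 7.33, 7.86 and 10.07 (lowest, median, highest of 6) at 6 hr and of 11.35, 10.42, 10.29, 13.80 and 12.37 at 24 hr in dogs 2838, 2840, 2841, 2853 and 2855. The difference was 3.36 ± 0.40 (SE), 10.2-fold, with an adjusted p of 2.68e-07, and it was higher in 5 of 5 pairs. The groups did not overlap, and the highest values at both times came from dogs 2839 (6 hr) and 2853 (24 hr). Untreated skin at 0 hr had a mean of 7.75. In the fit with slide as a fixed block the difference was 2.00 (adjusted p = 0.143), and within the second scan day 4.06 (8.47e-06).

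Of 22 chemokines measured, 5 rose and 0 fell by limma; at unadjusted p the whole comparison had 12502 identifiers below 0.05. The median of the list was 0.24, against 0.02 for all genes with a symbol (11.0% of which rose), 0.74 at saline sites and -0.29 in nonsensitized dogs. Within the second scan day 3 rose (median 0.10). Of the 5, 3 were well above background on at least 5 arrays at each time: CCL17, CCL19 and CCL5. CCL19, which draws dendritic cells and T cells to lymphoid tissue, rose from a median of 10.37 (range 8.87 to 10.48) to 11.75, 12.04, 11.52, 12.50 and 11.84. This was 3.86-fold (1.95 ± 0.25, adjusted p = 1.36e-06), with no overlap and 5 of 5 pairs higher. At saline sites of the same dogs the difference was 2.28. CXCL6, a neutrophil attractant, was well above background on only 1 of 6 arrays at 6 hr and on all 5 at 24 hr, and no fold is given for such a probe. CCL5 rose 2.36-fold (1.24 ± 0.32, adjusted p = 0.00448) in 5 of 5 pairs, and lost its call without the pairing by dog (1.36, 0.0663) and within the second scan day (1.24, 0.0792). The probe of the CCL14-CCL15 pair of neighbouring chemokine genes, which is not among these 22, rose 4.25-fold (2.09 ± 0.53, adjusted p = 0.00429) in 5 of 5 pairs, with 2.16 at saline sites and 1.40 in nonsensitized dogs; within the second scan day its adjusted p was 0.101. The chemokine with the brightest probe, CCL2 (brightness does not rank transcripts of different genes), had a difference of -0.04 ± 0.44 (adjusted p = 0.969) at allergen sites.

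**Figure D1:**
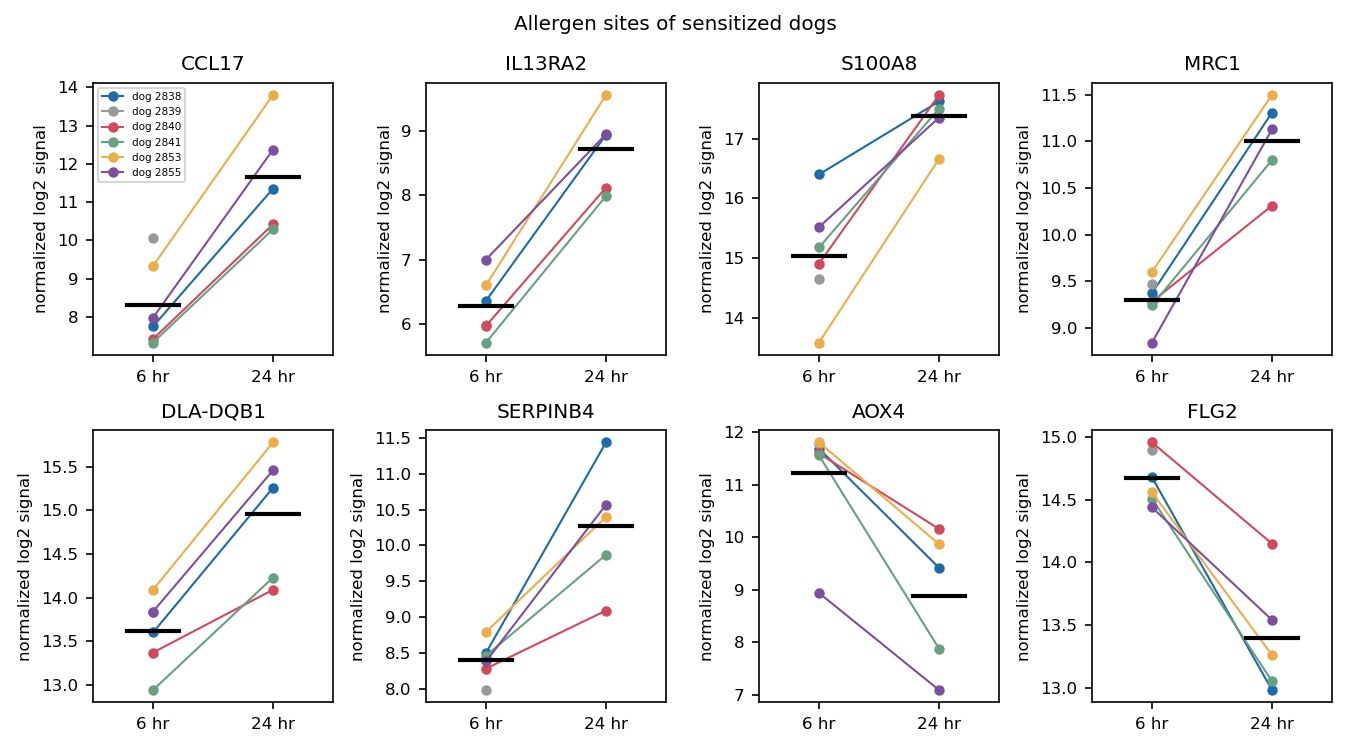
Normalized log2 signal of 8 genes at 6 hr and 24 hr allergen sites of sensitized dogs; each colour is a dog, lines join the 5 dogs with both arrays, and black bars are group means. CCL17 rose from a 6 hr median of 7.86 to between 10.29 and 13.80, and AOX4 fell in 5 of 5 pairs although dog 2855 was already low at 6 hr (8.94).

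Of 13 genes of cytokine receptors and their signalling 1 rose and of 8 chemokine receptors 2 rose, where 11.0% of all genes with a symbol rose. IL13RA2, a decoy receptor that binds IL-13, had 6 hr signals of 5.71, 6.18 and 7.00 (lowest, median, highest) and 24 hr signals of 8.94, 8.12, 7.99, 9.56 and 8.95. It rose 5.35-fold (2.42 ± 0.20, adjusted p = 4.97e-11), higher in 5 of 5 pairs and without overlap. It had a difference of 1.97 (adjusted p = 0.00573) with slide as a fixed block, one of the 8 named genes that kept their call there. Saline sites rose by 1.85 and nonsensitized allergen sites by 1.25 on the log2 scale. Among the 13 genes of cytokine receptors and their signalling IL13RA2 was the 1 that rose. The list also holds genes that are not receptors, and its median was 0.15. The brightest of the 13, IL18BP, which binds and neutralizes IL-18, had a difference of 1.05 ± 0.39 (adjusted p = 0.0538). Among 8 chemokine receptors 2 rose (median 0.19), among them CXCR6, a receptor of tissue T cells (0.67 ± 0.11, adjusted p = 1.85e-05), in 5 of 5 pairs. CXCR6 was 0.62 (adjusted p = 0.123) with slide as a fixed block, where limma called 0 of the 8 chemokine receptors. Of the 6 named through RefSeq limma called 0 in the main fit (median 0.14). The brightest, ACKR3, a scavenger receptor, had a difference of -0.14 ± 0.20.

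Cytokines themselves were mixed, with 5 of 24 higher (4 of them well above background on at least 5 arrays at each time), 1 lower and a median of 0.21. Among all genes with a symbol 11.0% rose and 4.24% fell. Named through RefSeq were 21 of the cytokines, of which 4 rose and 0 fell by limma (median 0.19). LTB, a membrane cytokine of lymphocytes that shapes lymphoid tissue, rose 2.67-fold (1.41 ± 0.22, adjusted p = 1.25e-05) in 5 of 5 pairs. IL33, an alarm cytokine of barrier cells, rose 2.52-fold at allergen sites (1.33 ± 0.24, adjusted p = 0.000142) and had 2.34 at saline sites. IL17F, a cytokine of T cells and the 1 of the 5 without such signal, was well above background on 2 of 6 arrays at 6 hr and on all 5 at 24 hr. IL37, which dampens inflammation, fell by 1.13 on the log2 scale (SE 0.25, adjusted p = 0.00105) in 4 of 5 dogs, with 12.18 in dog 2840 at 24 hr against 9.95 to 10.37 in the other dogs. IL37 was 0.67 with slide as a fixed block, where limma called 0 of the 24 (median 0.38), so LTB and IL33 lost their call there. With slide as a random block 3 rose and 1 fell, and with normexp and quantile scaling 2 rose and 1 fell. Within the second scan day 5 rose and 1 fell. The brightest cytokine, FLT3LG, had a difference of -0.35 (adjusted p = 0.0710).

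Antigen presentation genes rose in most cases. Of 21 measured genes 16 rose and 0 fell, and all 21 had positive differences, with a median of 0.87 against 0.02 for all genes with a symbol (11.0% of which rose). At saline sites the median was 0.47 and in nonsensitized dogs 0.09. Of the 16 named through RefSeq, 11 rose. DLA-DOB, which modulates peptide loading of class II molecules, had 6 hr signals of 6.75, 7.19 and 7.80 and 24 hr signals of 8.85, 7.89, 8.21, 9.26 and 9.07 in the 5 dogs. It rose 2.76-fold (1.46 ± 0.21, adjusted p = 4.84e-06), without overlap. DLA-DQB1, a class II chain, rose 2.59-fold (1.37 ± 0.21, adjusted p = 1.29e-05), with 14.09 in dog 2840 touching the 6 hr range (12.94 to 14.09). HLA-DMA, which loads peptides onto class II molecules, rose 2.38-fold (1.25 ± 0.17, adjusted p = 2.29e-06), DLA-DRA 2.10-fold (1.07 ± 0.18, adjusted p = 5.98e-05) and HLA-DRB1, the brightest, 1.85-fold (0.89 ± 0.17, adjusted p = 0.000189), each in 5 of 5 pairs. HLA-DMA and HLA-DRB1 are human gene names. DLA-DMA, the canine name that matches HLA-DMA, was counted as a separate member of the 21 (1.04 ± 0.17, limma adjusted p = 3.26e-05). The 21 are therefore symbols and not all different genes. Within the second scan day 15 rose, with a median of 1.00, and with scan day as a block 15 with a median of 0.93. With slide as a fixed block none of the 21 was DEG by limma (median 0.32, DLA-DOB 0.22 with adjusted p = 0.771), while over all identifiers that fit had 8889 below an unadjusted p of 0.05.

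Innate receptors and antimicrobial genes rose in 4 of 15 cases (median 0.36), where 11.0% of all genes with a symbol rose. Named through RefSeq were 10 of them, of which 2 rose. S100A8, a calcium-binding protein of neutrophils and stressed keratinocytes, had 6 hr signals of 13.59, 15.05 and 16.40 and 24 hr signals of 17.62, 17.73, 17.50, 16.66 and 17.35. It rose 5.08-fold (2.34 ± 0.51, adjusted p = 0.000946) with no overlap, and the spread was wider at 6 hr. It rose at saline sites too (2.17) and was also the brightest neutrophil marker. Within the second scan day its adjusted p was 0.0829 and with slide as a fixed block 0.0915. MRC1, the mannose receptor of macrophages, rose 3.28-fold (1.71 ± 0.20, adjusted p = 1.72e-07) from 8.84, 9.33 and 9.60 to 11.31, 10.31, 10.80, 11.50 and 11.13, without overlap; saline sites had 1.62. TLR1 (0.69 ± 0.20, adjusted p = 0.0114) and BPI (0.59 ± 0.18, adjusted p = 0.0136), an antibacterial protein, rose less. TLR1 lost its call without dog 2853 (0.54, adjusted p = 0.0957), and BPI without dog 2853 (0.44, 0.114), dog 2841 (0.58, 0.0529) or dog 2839 (0.54, under 1.5-fold).

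Complement and interferon genes were few on the array. Of 5 complement and coagulation genes 3 rose, with a median of 0.84: C3, the central complement protein, by 1.27 ± 0.29 (adjusted p = 0.00146, 4 of 5 pairs), C1R, a protease that starts the classical pathway, by 0.94 ± 0.19 (0.000370, 5 of 5 pairs) and CFP, properdin, by 0.84 ± 0.19 (0.00144, 5 of 5 pairs). These 3 carry names from the study's annotation, and of the 2 genes named through RefSeq limma called 0 (median -0.11). Within the second scan day 2 of the 5 rose. With slide as a fixed block limma called 0 of the 5 (median 0.41). The brightest of that list and of the endothelium markers, VWF, had a difference of -0.22 ± 0.14. Of 6 interferon response genes 2 rose: OAS2 (0.86 ± 0.27, adjusted p = 0.0202, 5 of 5 pairs) and OAS1 (0.87 ± 0.31, adjusted p = 0.0410, 4 of 5 pairs), both sensors of double-stranded RNA. Limma called 0 of the 6 within the second scan day (median 0.25), with slide as a random (0.32) or fixed block (0.22) and without the pairing by dog (0.36), where 11892, 10513, 8889 and 9025 identifiers had an unadjusted p below 0.05. OAS2 lost its call without dog 2838 (0.80, 0.0715) or dog 2853 (0.69, 0.115). OAS1 lost it without dog 2716 (adjusted p = 0.0531), 2838 (0.140), 2839 (0.0684), 2841 (0.129), 2853 (0.103) or 2855 (0.0773). OAS1 was -0.18 with slide as a fixed block.

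Markers of leukocytes were higher at 24 hr in part. In bulk tissue fewer cells of a type and less RNA per cell cannot be told apart, and no marker says how much of a change is cells. Of 9 monocyte and macrophage markers 6 rose, 1 of them from no array well above background at 6 hr, with a median of 0.98 (saline sites 1.42). Among all genes with a symbol 11.0% rose. Only 2 of the 9 were named through RefSeq, and 1 of these rose. The others carry names from the study's annotation of genes it selected on these arrays, so the count is not independent of the data. The summed linear signal of the 9 markers was 3290, 4790 and 6940 (lowest, median, highest) at 6 hr and 11800, 7160, 9170, 13900 and 10400 at 24 hr in dogs 2838, 2840, 2841, 2853 and 2855. The groups did not overlap. AIF1, the brightest of them, had a difference of 1.07 ± 0.22 (adjusted p = 0.000672); FCGR2B, an inhibitory antibody receptor, of 1.26 ± 0.34 (0.00639); CD163, a scavenger receptor, of 1.05 ± 0.24 (0.00158). Among the 6 that rose was VCAN, which is also on the dermal matrix list. The call of VCAN was lost without some single dogs, as given below. Within the second scan day 2 of the 9 were DEG, and with slide as a fixed block 0 by limma (median 0.55, CD163 at -0.02).

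Of 8 T cell markers 4 rose (3 of them well above background on at least 5 arrays at each time), 1 fell and 3 were no DEG (median 0.45), and within the second scan day 4 rose and 0 fell by limma (11892 identifiers at unadjusted p below 0.05). Among all genes with a symbol 11.0% rose. Named through RefSeq were 5 of the T cell markers, of which 2 rose. CTLA4, an inhibitory receptor and the brightest, rose 2.17-fold (1.11 ± 0.21, adjusted p = 0.000184), ICOS, a costimulatory receptor, 2.02-fold (1.01 ± 0.17, 4.26e-05) and LCK, a kinase of the T cell receptor, 1.70-fold (0.77 ± 0.13, 4.13e-05). CD28, the 1 of the 4 without such signal, was well above background on 2 of 6 arrays at 6 hr and on all 5 at 24 hr. A fixed block for slide left 0 of the 8 by limma (8889 identifiers at unadjusted p below 0.05), with a median of -0.09, ICOS at -0.13 and LCK at -0.04. Summed T cell marker signal was 729, 820 and 927 at 6 hr and 1130, 842, 998, 1600 and 1330 at 24 hr, so dog 2840 alone lay inside the 6 hr range.

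Mast cell markers rose in 3 of 6 cases (median 0.58), against 11.0% of all genes with a symbol. These were CMA1, a protease (0.84 ± 0.15, adjusted p = 8.60e-05), FCER1A (0.76 ± 0.16, 0.000719) and MS4A2 (0.70 ± 0.14, 0.000474), chains of the IgE receptor, FCER1A being the brightest. Of the other 3, which were no DEG, KIT went the other way. It was lower in 5 of 5 dogs, under 1.5-fold (-0.45 ± 0.11, limma adjusted p = 0.00227). Without the pairing by dog 0 of the 6 were DEG by limma (median 0.60, 9025 identifiers at unadjusted p below 0.05), within the second scan day 2 and with slide as a fixed block 2. Their summed signal was 2400, 3330 and 3840 at 6 hr and 4590, 5060, 3120, 7180 and 6750 at 24 hr, with dog 2841 inside the 6 hr range. Of 4 dendritic cell markers 2 rose: BATF3 (1.17 ± 0.30, adjusted p = 0.00401), the brightest, and CD1B (1.00 ± 0.22, 0.00116), a lipid-presenting molecule that was well above background on 5 of 6 arrays at 6 hr. Limma called 0 of these 4 with slide as a fixed block (median 0.49), 1 without the pairing by dog and 2 within the second scan day. Their summed signal ran from 390 to 888 (median 597) at 6 hr and was 853, 920, 839, 1520 and 1440 at 24 hr. Of 5 neutrophil markers S100A8 alone rose (median 0.11), and it made up most of a summed signal of 13100 to 87500 at 6 hr and 105000 to 219000 at 24 hr. The 1 eosinophil marker measured, CCR3, was well above background on 3 of 6 arrays at 6 hr and was no DEG. Markers of B cells, natural killer cells, sweat glands and erythrocytes had no member among the genes measured, so nothing can be said of these cells.

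**Figure D2:**
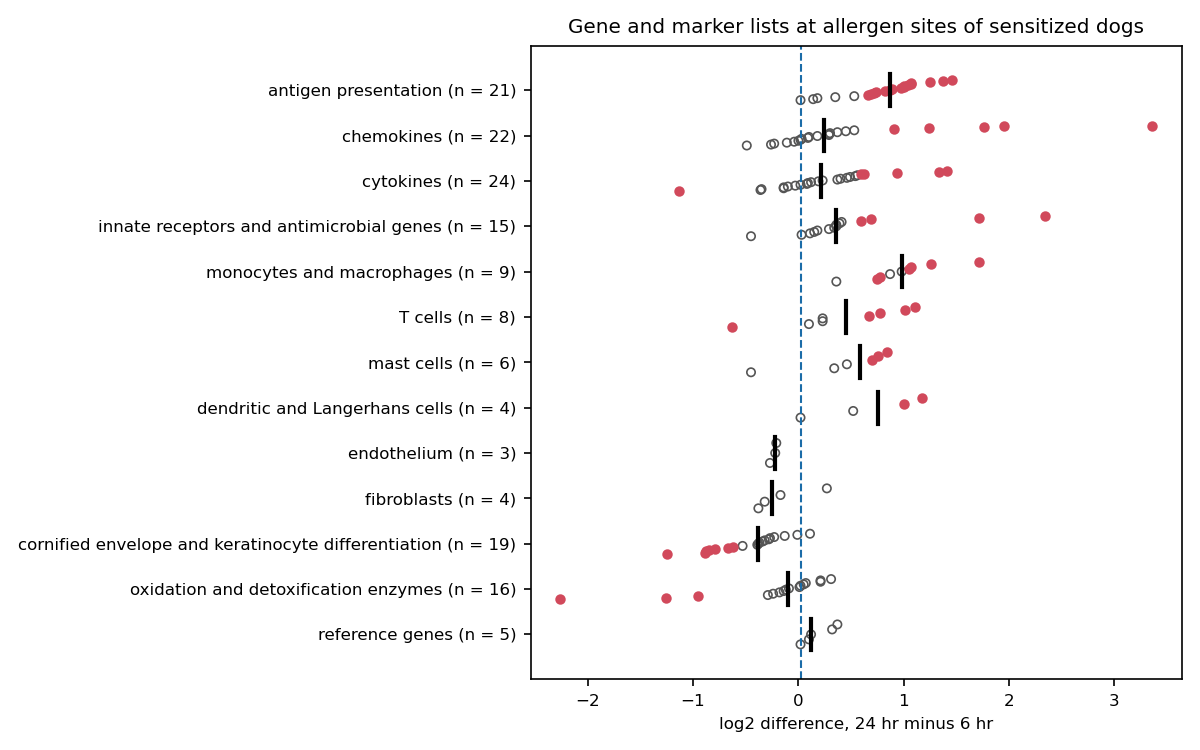
Log2 difference of each measured gene of 13 lists, 24 hr minus 6 hr at allergen sites of sensitized dogs; filled points are DEG, open points are not, black bars are list medians and the dashed line is the median of all genes with a symbol (0.02). Antigen presentation lay to the right (median 0.87, 16 of 21 filled), and cornified envelope genes to the left (median -0.38, 7 of 19 filled).

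Barrier genes held more DEG with lower levels at 24 hr than any other list. By median, epidermal lipid genes and melanocyte markers lay lower (both -0.42). Of 19 cornified envelope and keratinocyte differentiation genes 7 fell and 0 rose, with a median of -0.38 against 0.02 for all genes with a symbol (4.24% of which fell). Saline sites had a median of -0.28 and nonsensitized dogs 0.11. None of the 8 members named through RefSeq was a DEG by limma (median -0.25), so the falls are among names from the study's annotation. The study selected genes of that annotation partly for lower levels at 24 hr allergen sites of these dogs. The count of falls and the rank of this list are therefore not independent of the data. FLG2, a filaggrin-like protein of the cornified layer, had 6 hr signals of 14.44, 14.62 and 14.96 and 24 hr signals of 12.98, 14.15, 13.05, 13.26 and 13.54. It fell by 1.25 on the log2 scale (SE 0.17, adjusted p = 1.96e-06) in 5 of 5 dogs without overlap, and dog 2840 was the highest at both times. ASPRV1, a protease that processes filaggrin precursors, fell by 0.89 (SE 0.16, adjusted p = 9.50e-05), KPRP, a proline-rich keratinocyte protein, by 0.88 (0.20, 0.00158) and DMKN, a secreted epidermal protein, by 0.85 (0.13, 1.04e-05), each in 5 of 5 dogs. Within the second scan day 5 fell (median -0.39). With slide as a fixed block 0 were DEG by limma, with a median of -0.37 and FLG2 at -0.32 (adjusted p = 0.649). In unscaled signals the median of the list was -0.08 while that of all genes with a symbol was 0.31.

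Keratinocyte markers share genes with that list. Of 7 suprabasal markers 2 fell, both also on it: FLG2 and LORICRIN, a main protein of the cornified envelope (-0.79 ± 0.20, adjusted p = 0.00418), and the brightest, KRTDAP, had -0.13 ± 0.09. None of the 4 named through RefSeq fell. The brightest cornified envelope gene, KRT1, had -0.32 ± 0.14 (adjusted p = 0.106). Of 2 basal markers KRT15 fell by 0.76 (SE 0.12, adjusted p = 2.67e-05), and COL7A1, the brightest, had -0.07. KRT13, a keratin of stratified epithelia, had 6 hr signals of 16.60, 16.71 and 17.02 and 24 hr signals of 15.89, 15.23, 15.42, 15.59 and 15.46. It fell by 1.21 (SE 0.13, adjusted p = 2.49e-08) without overlap, also by 0.94 at saline sites, and with slide as a fixed block by 1.23 (adjusted p = 0.00587). Of 6 epidermal lipid genes 2 fell, ASAH2, a ceramidase (-0.63 ± 0.14, adjusted p = 0.00154), and SMPD3, a sphingomyelinase (-0.62 ± 0.14, 0.00197). Both lay just past 1.5-fold: ASAH2 missed it without dog 2838 (-0.55) or 2841 (-0.58), and SMPD3 without dog 2838 (-0.51), 2840 (-0.57) or 2853 (-0.55). ASAH2 was 0.04 with slide as a fixed block. UGCG, the brightest of the list, had -0.18, and none of 11 junction genes was a DEG (median -0.11, DSP -0.09).

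Several enzymes and secreted proteins fell. AOX4, an aldehyde oxidase, had 6 hr signals of 8.94, 11.65 and 11.81 and 24 hr signals of 9.42, 10.16, 7.88, 9.87 and 7.09. It fell by 2.26 on the log2 scale (SE 0.29, adjusted p = 9.76e-07) in 5 of 5 dogs, with a difference of -0.96 at saline sites and 0.03 in nonsensitized dogs. The groups overlapped because dog 2855 was low at 6 hr. FMO2, a flavin monooxygenase, fell by 1.26 (SE 0.19, adjusted p = 7.33e-06), and CYP1A2, a cytochrome P450, by 0.95 (SE 0.20, adjusted p = 0.000884) in 4 of 5 dogs. These were the 3 that fell of 16 oxidation and detoxification enzymes (median -0.10), and SOD1, the brightest, had -0.14. Without the pairing by dog CYP1A2 had an adjusted p of 0.513. DNASE1, a secreted nuclease, was well above background on 6 of 6 arrays at 6 hr and on 4 of 5 at 24 hr, so no size is given. PTGDS, a prostaglandin D synthase, fell by 1.12 (SE 0.16, 3.66e-06), PITPNM3, a phosphatidylinositol transfer protein, by 1.04 (0.16, 1.27e-05) and CA6, a secreted carbonic anhydrase, by 1.02 (0.18, 7.62e-05). ANGPTL1, a secreted angiopoietin-like protein, fell by 0.92 (0.23, 0.00338) and PDGFC, a growth factor, by 0.86 (0.18, 0.000745), all in 5 of 5 dogs.

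Other genes with large increases had varied roles. SDSL, a serine dehydratase-like enzyme, rose 5.27-fold (2.40 ± 0.32, adjusted p = 1.96e-06) from 5.15, 5.69 and 6.67 to 8.42, 8.47, 8.75, 7.23 and 8.05, without overlap, and was well above background on 5 of 6 arrays at 6 hr. PTPRZ1, a receptor phosphatase, rose 3.80-fold (1.93 ± 0.28, 5.43e-06), with 9.09 in dog 2838 at 6 hr above the other dogs. SERPINB4, a protease inhibitor of keratinocytes, rose 3.59-fold (1.84 ± 0.25, adjusted p = 2.30e-06) from 7.98, 8.42 and 8.79 to 11.44, 9.09, 9.87, 10.40 and 10.57. HSD11B1, which regenerates active glucocorticoid, rose 3.34-fold (1.74 ± 0.18, 1.20e-08) in 5 of 5 pairs and was the 1 DEG of 3 glucocorticoid response genes, of which MT2A was the brightest (0.11 ± 0.32). SLC26A4, an anion exchanger, was well above background on 4 of 6 arrays at 6 hr and on all 5 at 24 hr, so no size is given. SDSL, SERPINB4 and HSD11B1 kept their call with slide as a fixed block (3.18, 1.48 and 1.48), and PTPRZ1 did not (adjusted p = 0.0653).

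Other lists moved little, where 11.0% of all genes with a symbol rose and 4.24% fell. Limma called 0 of the 11 dermal matrix genes (median -0.17) and 0 of the 8 endothelial adhesion genes (-0.16) named through RefSeq. Of 14 dermal matrix genes 2 rose (median -0.14): EMILIN1, an elastic fibre protein (1.02 ± 0.15, adjusted p = 8.15e-06, 5 of 5 pairs), and VCAN, a proteoglycan (0.75 ± 0.26, 0.0333, 4 of 5 pairs). VCAN lost its call without dog 2839 (adjusted p = 0.0832), 2840 (0.0663), 2841 (0.107) or 2853 (0.104), or without slide 8 (0.0507). COL1A2, the brightest of that list and of the 4 fibroblast markers, had -0.32 ± 0.16. Of 10 endothelial adhesion genes 2 were called higher, 1 of them with signal on at least 5 arrays at each time (median -0.08): ITGB2, an integrin chain of leukocytes (0.82 ± 0.21, 0.00418, 5 of 5 pairs), and SELPLG, a selectin ligand of leukocytes, well above background on only 3 of 6 arrays at 6 hr. The call of SELPLG is not read as a change for that reason, and the brightest of the 10, MADCAM1, had -0.11. PTGES, a prostaglandin E synthase, rose (0.79 ± 0.20, 0.00346) as the 1 DEG of 21 acute inflammation genes (median 0.04, saline sites 0.53). The brightest of these 21 was TIMP1, a protease inhibitor (1.00 ± 0.38, adjusted p = 0.0583). Limma called 0 of the 21 within the second scan day (median -0.06) or with slide as a fixed block (0.23). With scan day as a block 2 rose and 1 fell. Of 9 heat shock genes CALR, a chaperone (0.60 ± 0.12, 0.000273), rose and HSP70 (-0.61 ± 0.11, 7.23e-05) fell, while HSPB1, the brightest, had -0.25. CALR missed 1.5-fold without dog 2838 (0.54), 2841 (0.56) or 2855 (0.57), and HSP70 without dog 2841 (-0.58) or 2855 (-0.51). With slide as a fixed block limma called 0 of the 14 dermal matrix and 0 of the 9 heat shock genes.

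Among 7 immediate early genes, 2 cell division genes and 5 reference genes limma called 0, with medians of -0.01, -0.13 and 0.12; the brightest were MCL1 (0.17), CCND1 (-0.40) and ACTB (0.10). Of 4 clock genes 1 fell (median -0.22), with 0 by limma within the second scan day or with slide as a block, and RORA, the brightest, had -0.38. Limma likewise called 0 of 3 endothelium, 4 fibroblast, 1 smooth muscle, 3 skeletal muscle, 3 hair follicle, 2 sebaceous gland, 8 melanocyte, 3 adipocyte and 2 platelet markers. Their brightest members not given above were DES (-0.10), MYH1 (0.57), SOX9 (-0.28), ACSBG1 (-0.46), PMEL (-0.51), ADIPOQ (-0.59) and ITGA2B (-0.27). With scan day as a block, and within the second scan day, 1 adipocyte marker was called lower. With slide as a fixed block 1 hair follicle marker, 1 platelet marker and 1 cell division gene were called lower. Summed fibroblast signal was 371000 to 455000 at 6 hr and 284000 to 382000 at 24 hr, and was lower in 5 of 5 dogs. So were the summed signals of suprabasal keratinocyte (386000 to 514000 and 301000 to 493000), sebaceous gland (5030 to 8410 and 3990 to 6280), melanocyte (8880 to 23400 and 6540 to 15100) and adipocyte markers (4320 to 8770 and 2910 to 6640), all with overlap. In unscaled signals, where all identifiers had a median of 0.28, many list medians below 0 turned. Among them were endothelium (from -0.22 to 0.07), fibroblasts (-0.25 to 0.05), clock genes (-0.22 to 0.07), platelets (-0.24 to 0.04) and dermal matrix (-0.14 to 0.10). Medians of melanocyte (-0.15) and suprabasal keratinocyte markers (-0.08) stayed below 0. In the summed signals the brightest members weigh most. Of 3 adipocyte markers 2 had differences above 0 (list median 0.05), and of 2 sebaceous gland markers 1 did. How much these shares of tissue bear on other lists was not tested.

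Few changes differed by the test between allergen and saline sites of the same dogs. Of the same 38237 identifiers 53 (0.139%) differed between the change at allergen and at saline sites, 19 (0.0497%) with a more positive and 34 (0.0889%) with a more negative change at allergen sites. Of the 1250 genes with a symbol 11 (0.880%) did, 6 (0.480%) more positive and 5 (0.400%) more negative. SERPINB4 had a difference between sites of 2.05 ± 0.34 (adjusted p = 0.00197), since saline sites stayed at 7.81, 8.38 and 8.78 at 6 hr and 7.44, 7.98 and 9.31 at 24 hr (lowest, median, highest). A2ML1, a protease inhibitor of the epidermis, was not well above background on any 6 hr array, so by plain group means allergen sites were at least 2.19-fold higher at 24 hr (6.77, 5.59, 6.44, 5.77 and 6.05). Its test against saline sites is not used here, as its 6 hr signal was background. FAM3D, a cytokine-like protein, NMB, a neuropeptide, and GPR98, an adhesion receptor, rose at allergen sites by 1.26, 0.82 and 0.87, while saline sites had 0.10, 0.01 and 0.08. The differences between sites were 1.16 ± 0.20 (adjusted p = 0.00280), 0.81 ± 0.15 (0.00749) and 0.79 ± 0.15 (0.0119). PRNP, the prion protein gene, fell by 0.64 at allergen sites, with 0.02 at saline sites (difference -0.66 ± 0.13, 0.0220).

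The largest negative differences came from change at saline sites. PTX3, a pattern recognition protein made in acute inflammation, had 5.08, 5.26 and 5.41 at 6 hr and 8.89, 10.34 and 10.78 at 24 hr at saline sites. At allergen sites it was already at 6.51, 7.46 and 9.37 at 6 hr, and at 8.30, 8.68, 9.62, 8.96 and 9.93 at 24 hr. The difference between sites was -3.50 ± 0.71 (adjusted p = 0.0211). CCL2, a monocyte attractant, had 13.10, 13.91 and 15.44 at 6 hr and 13.43, 15.03, 13.53, 14.16 and 14.35 at 24 hr at allergen sites, while saline sites went from 10.94, 11.31 and 11.72 to 12.46, 14.24 and 14.62. Its difference was -2.69 ± 0.60 (adjusted p = 0.0413), and that of CCL8, a related chemokine, -2.60 ± 0.59 (0.0456). At saline sites the 2 times did not overlap for any of the 3, while at allergen sites they did. GFI1, a transcriptional repressor, had -0.13 at allergen and 0.78 at saline sites (-0.91 ± 0.19, 0.0305).

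**Figure D3:**
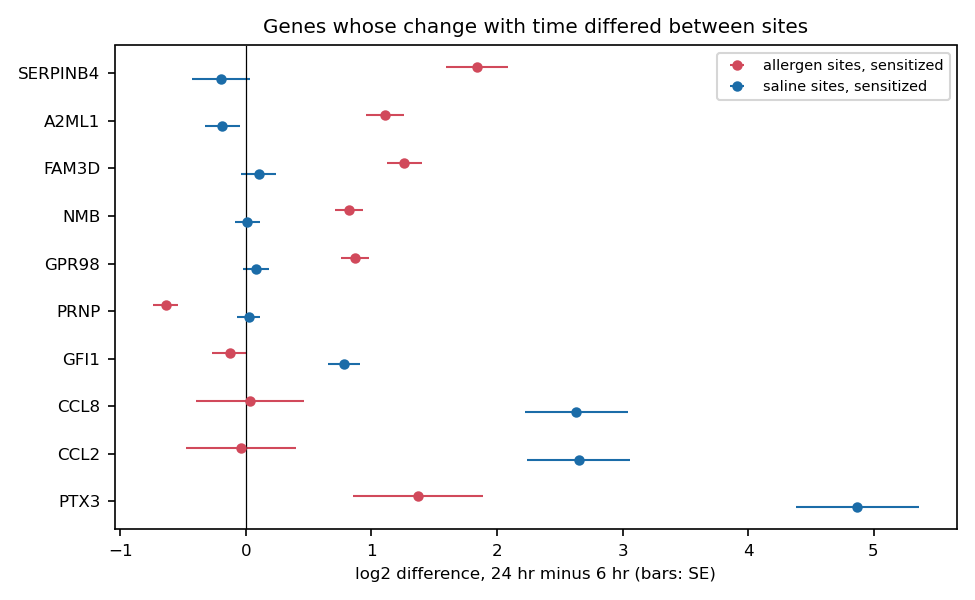
Log2 difference, 24 hr minus 6 hr, of 10 genes at allergen and saline sites of sensitized dogs with SE bars; A2ML1 was at background at 6 hr allergen sites. CCL2, CCL8 and PTX3 rose at saline sites (2.65, 2.63 and 4.87) and had differences of -0.04, 0.03 and 1.37 at allergen sites, whereas SERPINB4 rose at allergen sites (1.84) and not at saline sites (-0.20).

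The 53 rested on few dogs. Without dog 2838 there were 9, without 2839 20, without 2853 21 and without 2855 22, and without dog 2840 there were 103. Leaving aside A2ML1, 2 of the 9 other genes named here kept their call without dog 2838 (SERPINB4 and FAM3D, which kept it without any dog) and 4 without dog 2853. PTX3 lost it without dog 2838 (-2.92, adjusted p = 0.212) or 2853 (-3.27, 0.146), PRNP without 2838, 2839 or 2853, GFI1 without 2838, 2839, 2840, 2841 or 2853, GPR98 without 2838 or 2855 and NMB without 2838. CCL2 also lost it without dog 2800 (adjusted p = 0.0536), 2802 (0.0508), 2839 (0.131), 2841 (0.0713), 2845 (0.0594) or 2855 (0.0581), and CCL8 without the same dogs or dog 2847, the direction being kept in each case. Without the pairing by dog 11 identifiers were left and 2 of the 9 genes. With scan day as a block there were 105 and all 9 kept their call; within the second scan day there were 10, and none of the 9 genes was a DEG by limma (adjusted p from 0.101 to 0.407; 3403 identifiers at unadjusted p below 0.05).

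Nonsensitized dogs had the same allergen patch. The change from 6 hr to 24 hr differed between sensitized and nonsensitized dogs for 3769 identifiers (9.86%), 2349 (6.14%) more positive and 1423 (3.72%) more negative in sensitized dogs (3 identifiers had probes in both). Of the 1250 genes with a symbol 266 (21.3%) differed, 153 (12.2%) more positive and 113 (9.04%) more negative. CCL17 differed by 2.55 ± 0.54 (adjusted p = 0.00300), with 7.52, 8.04 and 9.12 at 6 hr and 7.60, 9.16 and 10.67 at 24 hr in nonsensitized dogs. SDSL (2.35 ± 0.44, 0.00129), IL18BP (2.08 ± 0.54, 0.00846), SERPINB4 (2.04 ± 0.34, 0.000603) and STEAP4, a metalloreductase (2.00 ± 0.44, 0.00351), had more positive changes. AOX4 differed by -2.29 ± 0.39 (adjusted p = 0.000696), with 10.89, 12.05 and 13.01 at 6 hr and 11.47, 11.97 and 13.01 at 24 hr in nonsensitized dogs, where the times overlapped fully. FMO2 (-1.49 ± 0.26, 0.000696), SLITRK6, a neuronal transmembrane protein (-1.46 ± 0.42, 0.0143), PITPNM3 (-1.41 ± 0.22, 0.000341) and KPRP (-1.30 ± 0.27, 0.00290) had more negative changes.

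Slide and scan day weigh most on this last comparison. Most 24 hr allergen arrays of nonsensitized dogs were scanned on the first day and their 6 hr arrays on later days. With scan day as a block 429 identifiers differed, and within the second scan day 33. With slide as a fixed block limma called 0, where 2578 identifiers had an unadjusted p below 0.05, and with slide as a random block 172. All 10 genes kept their direction in each of these fits, and 7 kept their call with scan day as a block, 6 with slide as a random block 0 with slide as a fixed block (adjusted p from 0.0840 to 0.804) and 0 within the second scan day (0.357 to 0.901). Without dog 2840 there were 1833 identifiers. In unscaled signals 937 were more positive and 3422 more negative. The difference between the groups of dogs and that between slides cannot be told apart.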

How the data were processed

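Intensity values were the processed spot signals that the authors made with Agilent Feature Extraction 10.7.3.1, background subtracted and not scaled between arrays, per the file headers; the deposited series table holds the same signals. Files of 2 saline or untreated arrays outside the 11 hold rounded signals and no header. Control spots and 6048 outlier values were left out. Signals were brought to a log2 scale by a vsn model after the study methods, and probes were kept that were well above background on 5 arrays of either time: 43998 of 61657 spots (71.4%), 42794 probes; 1546 spots passed through the 24 hr side alone and 603 through the 6 hr side alone. Spots of a probe were averaged. limma 3.58.1 in R 4.3.3 fitted 59 arrays, 10 group means and dog as a block, with Benjamini-Hochberg adjustment (Python 3.11.15, numpy 2.4.6, pandas 2.3.3, matplotlib 3.10.9). The vsn and limma steps were tested on simulated data. A probe not well above background on any array of a group was given as a bound, against the lowest signal well above background on each array, or its own signal where that was higher.

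The same dog gave both biopsies, as the labels' animal numbers state. Deviations from the group means correlated at 0.17 to 0.51 for the 5 same-dog pairs and at -0.39 to 0.22 for 25 pairs of different dogs.

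Members and lists were chosen with earlier results of these data known. Named genes followed a rule: the 12 largest increases and 12 largest decreases past both limits in all 5 pairs, the 5 largest of either sign in the other comparisons, and of each list up to 4 DEG and the member with the brightest probe, which does not rank transcripts, 108 genes in all, of which 3 are not reported here. KIT was named outside this rule. Each gene stands by its brightest probe. Symbols came from a RefSeq table (assembly UU_Cfam_GSD_1.0; 1080 array identifiers matched) or else from the study's annotation of genes it selected.

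Alternatives were pairing, arrays, scaling, background correction, filter, slide, leaving out each dog, fold limit and counting unit. Scan day, the second scan day alone, leaving out slide 8 and RefSeq names alone were chosen after seeing the data.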

Additional observations from a re-analysis of the deposited data

Results flagged for a closer look

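Chance sets about 1 in 20 groups apart in this way; 14 of 220 groups of arrays or gene signals held 1 sample far from the others. In percent of spots well above background these were dog 2839 at 6 hr (80.03) and dog 2840 at 24 hr (73.95). In log2 signal at 6 hr allergen sites they were AOX4 in dog 2855 (8.94), GPR98 in dog 2841 (7.26), PTPRZ1 in dog 2838 (9.09), SELPLG in dog 2853 (6.35) and SOX9 in dog 2840 (11.10). At 24 hr they were GPR98 in dog 2838 (8.17), IL37 (12.18) and PTGDS (9.96) in dog 2840, MYH1 (7.84), PMEL (12.05) and SLITRK6 (6.70) in dog 2855, and VWF in dog 2841 (14.06).

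The change from 6 hr to 24 hr at allergen sites differed between sensitized and nonsensitized dogs, by the limma test of that difference, for 3769 identifiers. Among named genes the difference was 2.55 for CCL17, 2.35 for SDSL, 2.08 for IL18BP, 2.04 for SERPINB4 and 2.00 for STEAP4, and -2.29 for AOX4, -1.49 for FMO2, -1.46 for SLITRK6, -1.41 for PITPNM3 and -1.30 for KPRP. Slide and scan day differ between these groups as well, and cannot be told apart from them.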

How the results depend on the processing

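Counts at allergen sites (1328) were 7598 with no fold limit, 2177 with all 60 arrays, 5071 in unscaled signals, 847 with normexp and quantile scaling, 2265 with no filter, 2236 with slide as a fixed block and 334 from the 11 arrays alone without pairing; leaving out 1 dog gave 1166 to 1711. Without the replicate block, that is without pairing by dog, the 3 counts were 876, 11 and 1010. For allergen against saline sites (53) there were 149 with all 60 arrays, 14 unscaled, 29 with no filter, 325 with slide as a fixed and 113 as a random block, 105 with scan day as a block, 10 within the second scan day, 145 without slide 8 and 9 (without dog 2838) to 103 (without dog 2840) without 1 dog; dogs 2839, 2853 and 2855 gave 20, 21 and 22. For sensitized against nonsensitized dogs (3769) there were 8496 with no fold limit, 6462 with all 60 arrays, 2329 with normexp, 0 with slide as a fixed block by limma (2578 identifiers at unadjusted p below 0.05), 172 as a random block, 429 with scan day as a block, 33 within the second scan day and 1833 (without dog 2840) to 5002 (without dog 2841) without 1 dog. The causes were not tested.

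Signs turned in these cases, mostly in genes that were no DEG. With slide as a fixed block ACKR3 was 0.30, ACTB -0.06, ASAH2 0.04, CCL2 1.22, CD163 -0.02, DES 0.39, DNASE1 0.36, ICOS -0.13, IL37 0.67, ITGA2B 0.21, KRTDAP 0.46, LCK -0.04, OAS1 -0.18, SOD1 0.27 and UGCG 0.29. In unscaled signals, where all genes shift upwards, ACKR3 was 0.15, CCL2 0.26, COL7A1 0.23, DES 0.14, DSP 0.21, HSPB1 0.05, ITGA2B 0.02, KRTDAP 0.17, MADCAM1 0.19, SOD1 0.16, SOX9 0.01, UGCG 0.12 and VWF 0.08. With all 60 arrays ACKR3 was 0.06, CCL2 0.07, DES 0.05 and KRTDAP 0.04; with slide as a random block CCL2 0.10 and DES 0.03; with normexp DSP 0.02; with scan day as a block MADCAM1 0.00; within the second scan day COL7A1 0.03, MADCAM1 0.04 and MT2A -0.21; without slide 8 MT2A 0.00. Leaving out 1 dog gave ACKR3 -0.24 (without 2838) to 0.07 (2841), CCL2 -0.33 (2840) to 0.27 (2838) with 0.15 (2855), COL7A1 up to 0.00 (2840 or 2853), MADCAM1 -0.24 (2853) to 0.08 (2841) and MT2A -0.13 (2841) to 0.32 (2838) with -0.02 (2840).

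Taking the mean over all probes of a gene, run for list medians and not for list counts, moved 2 of 39 medians by more than the spread between dogs, reference genes to 0.30 and adipocytes to -0.53. A2ML1, CXCL6, CD28, IL17F, SELPLG, SLC26A4 and DNASE1 passed the filter through only 1 time, where they were higher. No change is read from their fits, counts of DEG still include them, and A2ML1 is given as a bound.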
